A study of Mus musculus with 36 samples.

Results

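Mitochondria in brain cells fuse, divide and are removed when damaged, and the levels of 10 genes of that machinery were described here in the brains of Ndufs4 knockout and wild-type mice. The genes were chosen by name, with earlier results of these data known. The list holds the fusion genes Mfn1, Mfn2 and Opa1, the protease gene Oma1, the fission genes Dnm1l, Fis1, Mff and Mief1, and the mitophagy genes Pink1 and Bnip3l. These genes are 10 of the 56980 gene rows of the count table, and all 10 were among the 25601 genes with enough counts to be tested. The samples were brains of 36 mice aged 37 to 45 days, either Ndufs4 knockout (KO) or wild type (WT), given CP2 or vehicle by gavage for 3 days before polyA RNA was sequenced. Each sample title carries a letter, F or M, which gives 8 groups: KO vehicle F, WT vehicle F, KO CP2 F, WT CP2 F, KO CP2 M and WT CP2 M with 5 mice each, and KO vehicle M and WT vehicle M with 3 each. Ndufs4 encodes a subunit of complex I of the respiratory chain, and mice without it develop a disease like human Leigh syndrome. CP2 is a small molecule described as a weak inhibitor of complex I. The sample labels name the tissue as brain, the design text names hippocampus and cortex without tying either to a sample, and no allele, dose or vehicle composition is given. These are bulk samples, so fewer cells of a type and less RNA per cell cannot be told apart in any value below.

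Fusion of the outer mitochondrial membrane is carried out by the mitofusins, encoded by Mfn1 and Mfn2, and fusion of the inner membrane by the GTPase Opa1. Oma1 is an inner-membrane protease that cuts Opa1 when the membrane potential falls. Division depends on the dynamin Drp1, encoded by Dnm1l, which is recruited to the outer membrane by Mff and by MiD51, the product of Mief1, while Fis1 is an outer-membrane protein also linked to division. Pink1 is a kinase that accumulates on depolarised mitochondria and starts their tagging with ubiquitin, and Bnip3l, also called Nix, is an outer-membrane receptor that binds the autophagy machinery directly. In neurons these steps set the shape, transport and turnover of mitochondria along axons and dendrites, and much of the control acts on the proteins rather than on their mRNAs.

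Gene counts per sample ran from 4.61e+07 to 8.86e+07, with a median of 5.47e+07, and levels are given below as CPM, counts scaled to a common library size with TMM factors. Ndufs4 itself was 34.4 ± 2.84 CPM in KO vehicle F and 53.4 ± 5.51 in WT vehicle F (mean ± SD, n = 5 each), a log2 difference of -0.63 (SE 0.085, edgeR adjusted p = 2.83e-05), and it was lower in KO than in WT under each treatment and letter, by 0.34 to 0.66 on the log2 scale. The labels do not say which part of the gene is deleted, and the KO groups still had means of 28.2 to 35.6 CPM. Between KO groups, the edgeR log2 difference of Ndufs4 for CP2 against vehicle was 0.34 in M (SE 0.099, adjusted p = 0.0368). In F it was 0.04 (SE 0.085, adjusted p = 0.924). Xist lay at 438.6 to 797.5 CPM in the F samples and at or under 0.833 in the M samples other than KO CP2 M sample L291, which had 47.3. The Y-linked gene Ddx3y lay at 61.8 to 84.5 CPM in the M samples, L291 among them, and at or under 0.214 in the F samples. The outside-gene share, the reads that the counting assigned to no annotated feature, ran from 5.09% to 13.2% of a library. Despite its name, it can also hold reads in introns of annotated genes. The share moved with the groups. It was 12.1 ± 0.885% in KO vehicle M, 7.33 ± 1.404% in KO CP2 M and 11.5 ± 1.64% in WT CP2 M. In KO vehicle F it was 9.24 ± 2.56% and in WT vehicle F 5.995 ± 0.740%. No neuron, astrocyte, oligodendrocyte, microglia or endothelium marker was at 0 in any group, and the 10 neuron markers summed to between 5367 and 8064 CPM. Sums of other marker lists varied more between samples. They ran from 195.9 to 3467 CPM for choroid plexus, 293 to 1641 for striatum and 23.4 to 772.9 for red cells.

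The start regions of Pink1 and Mief1 are shown because these genes carried the largest rise and the largest fall among the members that passed the test in the CP2-treated mice. Both come from the RefSeq promoter table for GRCm38.p6, an older build than the GRCm39 the submitters' processing notes name, and are printed 5′ to 3′ on the strand of the gene, up to the first annotated transcript start, with GGGCGG or its other-strand form CCGCCC, the GC box, in capitals. The Pink1 stretch lies at chr4:138326308-138326546 on the minus strand and the Mief1 stretch at chr15:80233830-80234017 on the plus strand.
Pink1: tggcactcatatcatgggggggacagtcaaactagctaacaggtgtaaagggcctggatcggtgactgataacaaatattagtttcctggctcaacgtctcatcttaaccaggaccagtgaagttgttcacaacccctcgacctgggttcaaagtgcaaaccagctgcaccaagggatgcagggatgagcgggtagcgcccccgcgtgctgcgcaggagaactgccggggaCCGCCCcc
Mief1: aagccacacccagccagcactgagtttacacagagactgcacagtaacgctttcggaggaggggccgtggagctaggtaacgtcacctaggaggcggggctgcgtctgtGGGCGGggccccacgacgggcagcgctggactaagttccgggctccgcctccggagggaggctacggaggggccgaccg
The Pink1 stretch of 239 bases was 56.1% G and C and the Mief1 stretch of 188 bases 67.0%. The median over the promoters of the table was 52.4%, taken over full windows of 250 bases, so the lengths compared are unlike. A GC box was found on either strand within 250 bases before the start in all 9 members that the table holds, which leaves out Bnip3l, and in 32.7% of all 32851 promoters. Of the other motifs searched on both strands, the NRF1 palindrome was found in 1 of the 9 (Opa1) against 0.782% of promoters, while CACGTG was found in 0 of the 9 against 6.02%. The motif GTAAACA was found in 0 against 3.17%, AAGGTCA likewise in 0 against 4.08%, and TGATGCAA in 0 against 0.792%. Some members have more than 1 start in the table and counted if any of them held the motif, whereas the percentages count each promoter. The 2 figures are therefore in unlike units. A match describes letters in a window and nothing about binding.

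Set per length of exon, the members spanned a wide range of levels in brain. The length was that of all annotated exons of a gene, joined over its transcripts, and the order depends on it. In mean CPM without this length, Mff (182.4) and Opa1 (175.3) lay above Bnip3l (144.7). Pink1 was highest at 181 ± 27.3 CPM per kilobase of exon (mean ± SD over the 36 samples), and its lowest sample, at 137, lay above every sample of every other member. Fis1 followed at 62.7 ± 7.26, then Mfn2 at 42.8 ± 2.02, Dnm1l at 41.8 ± 2.42, Bnip3l at 37.5 ± 2.82, Opa1 at 22.3 ± 1.53, Mff at 18.7 ± 0.928, Mfn1 at 12.7 ± 1.10, Mief1 at 3.41 ± 0.331 and Oma1 at 2.53 ± 0.458. The sample ranges of neighbours in this order did not overlap between Pink1 and Fis1, Bnip3l and Opa1, Mff and Mfn1, and Mfn1 and Mief1, and overlapped for the other 5 neighbouring pairs. Relative to its own mean over the 36 samples, Oma1 varied most (18.1%), followed by Pink1 (15.1%) and Fis1 (11.6%), and Mfn2 least (4.71%). Oma1 also had the fewest reads, with 152 to 537 counts a sample, whereas Pink1 had 16549 to 46516.

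**Figure D1:**
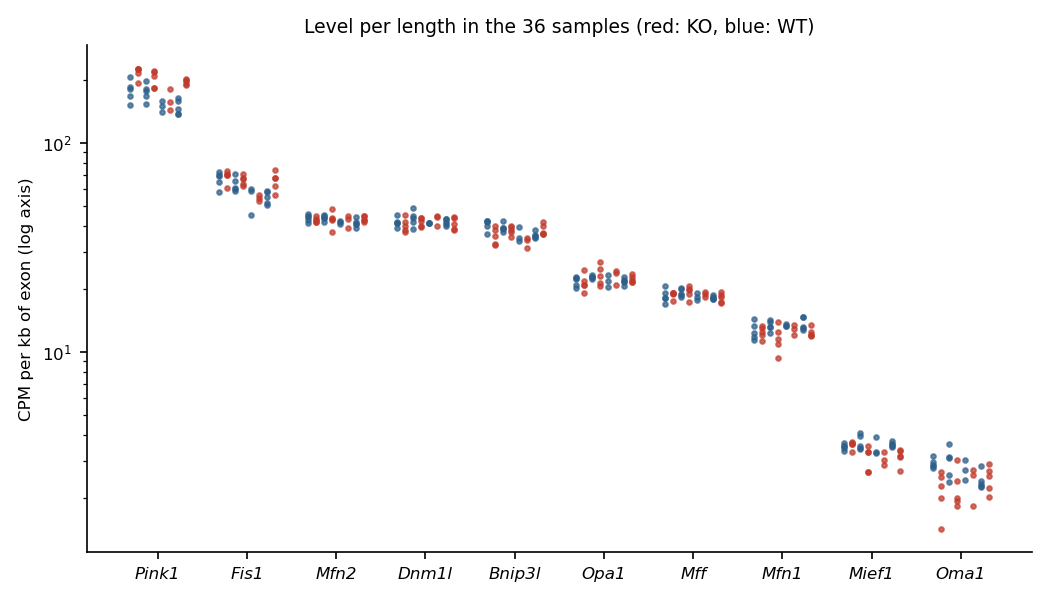
Level of each of the 10 genes in each of the 36 samples, in CPM per kilobase of exon on a log axis, KO in red and WT in blue, ordered by mean level. Pink1 sits above all other members (136.9 to 226.7 CPM per kilobase), and Mief1 and Oma1 sit lowest, with overlapping ranges.

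Across the comparisons, the largest called change among the members was a higher Pink1 level in KO brains under CP2. Called changes of Fis1, Mief1 and Mfn1 in CP2-treated mice were smaller. The genotype by CP2 interaction was called for no member, so none of these changes was shown to depend on CP2. In CP2-treated mice, averaged over F and M, Pink1 and Fis1 rose and Mief1 and Mfn1 fell in KO against WT (4 of 10 members, where 11.6% of all tested genes, 5.54% higher and 6.07% lower, were called at adjusted p under 0.05 by edgeR's quasi-likelihood test). In vehicle-treated mice averaged over F and M no member was called, against 6.67% of all genes, while 3 members (Oma1, Pink1 and Bnip3l) had an unadjusted p under 0.05, as did 21.6% of all genes, and DESeq2 called 1. By letter, vehicle F had 1 member called (Pink1, 4.96% of all genes), vehicle M 0 (0.516%), CP2 F 0 (2.00%) and CP2 M 2 (Pink1 and Fis1, 9.99%). The unadjusted count was 0 in vehicle M (12.2% of all genes) and 4 in CP2 F (15.7%), and DESeq2 called 0 members in both. The median log2 difference of the 10 members was 0.00 in the vehicle comparison and 0.01 in the CP2 comparison, beside 0.02 and 0.01 over all tested genes. Since the members were chosen with earlier results of these data known, their counts beside the shares of all genes are a description and not a test.

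**Figure D2:**
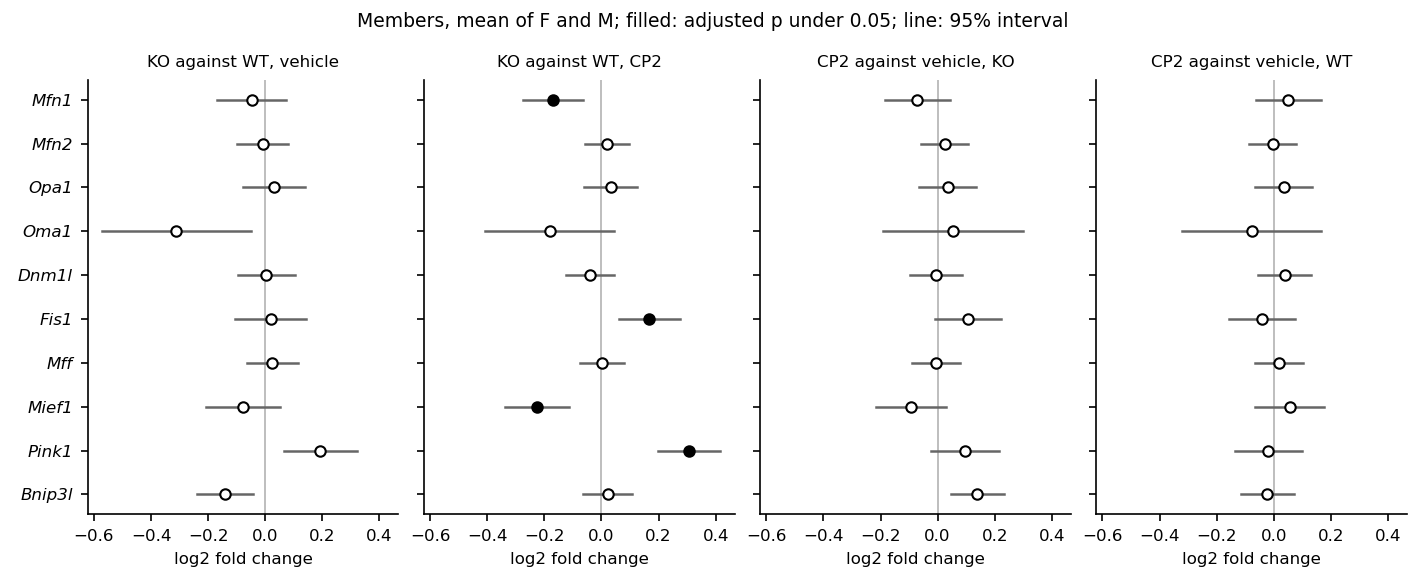
Log2 fold change of each member with its 95% interval in the main comparisons averaged over F and M; filled points passed adjusted p under 0.05. The 4 filled points are Pink1 and Fis1 to the right of 0 and Mief1 and Mfn1 to the left, all in KO against WT under CP2.

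Pink1, the kinase that marks damaged mitochondria, was higher in KO brains under CP2. In CP2-treated M mice the KO samples had 507.2, 510.8, 529.0, 533.0 and 541.9 CPM, and the WT samples 366.0, 366.0, 386.5, 424.7 and 440.1. Every KO sample lay above every WT sample, as in 4.76% of all genes in this direction, and the KO samples lay close together. The difference was 0.40 on the log2 scale (SE 0.077, adjusted p = 0.000480), or 32.2%, and it was 0.34 (adjusted p = 0.00477) with the hippocampus marker level as a covariate. Between the same samples astrocyte markers summed to 6091 to 7180 CPM in KO and 4983 to 5867 in WT, with 2 of 8 called higher. Microglia markers summed to 391.5 to 524.9 CPM against 311.9 to 395.1, with 5 of 8 higher. The mean level of the hippocampus markers was 3.56 to 4.13 log2 CPM in KO and 4.23 to 4.496 in WT, while their summed CPM was 402.9 to 473.2 against 364.6 to 422.5, and 1 of 10 was called in each direction. Oligodendrocyte markers had median sums of 1.38e+04 CPM in KO and 1.094e+04 in WT, and choroid plexus markers 1952 and 1051. The sample ranges of both lists overlapped. The outside-gene share was 5.18% to 9.065% in KO and 9.048% to 13.2% in WT. The part of the astrocyte, microglia, oligodendrocyte and choroid plexus markers in the result was not tested. In CP2-treated F mice the KO samples had 491.4, 491.5, 555.8, 581.9 and 591.7 CPM, and the WT samples 408.9, 446.3, 472.6, 484.9 and 528.9. The groups overlapped through the highest WT sample, and the difference of 0.21 (SE 0.077, adjusted p = 0.142) did not pass. Averaged over the letters the difference under CP2 was 0.31 (SE 0.054, adjusted p = 0.000155), or 23.8%. Without KO CP2 M sample L291 the averaged differences under CP2 were 0.30 for Pink1, -0.23 for Mief1, -0.19 for Mfn1 and 0.18 for Fis1, all still called. The averaged Pink1 call held when each of the 20 samples of the comparison was left out in turn and under all 6 alternative settings.

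Under vehicle, Pink1 in F mice was 515.4, 574.6, 600.1, 601.1 and 605.9 CPM in KO, and 406.8, 445.6, 482.8, 494.9 and 549.6 in WT. The highest WT sample lay above the lowest KO sample only. The difference was 0.28 (SE 0.077, adjusted p = 0.0245), and it did not pass with the outside-gene share as a covariate (0.28, adjusted p = 0.148), with the hippocampus marker level as one (0.21, adjusted p = 0.110) or fitted on these groups alone (0.30, adjusted p = 0.0588). The call also ended without KO sample L281 (adjusted p = 0.0572) or WT sample L252 (0.0852) or L278 (0.0586). In vehicle M mice the KO samples had 385.4, 419.1 and 485.9 CPM and the WT samples 373.7, 402.9 and 425.1. The M groups overlapped, with a difference of 0.10 (SE 0.099, adjusted p = 0.760), and the F minus M difference itself was 0.18 (SE 0.13, adjusted p = 0.775), so F and M were not shown to differ. Averaged over F and M the vehicle difference was 0.19 (SE 0.063, adjusted p = 0.0531). In vehicle F the hippocampus markers, with a mean of 3.43 to 3.96 log2 CPM in KO and 3.998 to 4.75 in WT, were separate, and 2 of the 10 were called lower. The same markers summed to 335.9 to 501.5 CPM in KO and 354.1 to 499.1 in WT, which overlapped. The neuron markers summed to 5367 to 6705 CPM in KO and 6644 to 7398 in WT, with 1 of 10 called lower, and their part was not tested.

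Bnip3l, the mitophagy receptor, showed the opposite sign under vehicle. In vehicle F mice it was 125.7, 126.0, 138.2, 147.2 and 154.4 CPM in KO, and 141.4, 153.8, 160.7, 162.6 and 163.3 in WT. The groups overlapped, with a difference of -0.18 (SE 0.060, adjusted p = 0.0749). In vehicle M mice it was 121.7, 132.2 and 135.5 CPM in KO and 131.3, 135.4 and 151.8 in WT, with a difference of -0.10 (SE 0.078, adjusted p = 0.658). The mean over F and M was -0.14 (SE 0.049, adjusted p = 0.0745), which passed without KO vehicle F sample L283 (adjusted p = 0.0356) and was -0.06 with the outside-gene share as a covariate. Under CP2 the KO and WT levels were close, 0.02 (95% interval -0.06 to 0.11), with 146.9 ± 6.61 and 151.5 ± 6.48 CPM in F and 148.1 ± 8.73 and 139.3 ± 4.78 in M (n = 5 each). Of the 10 members Bnip3l followed the outside-gene share most closely, with Pearson r -0.78 and Spearman rho -0.79 over the 36 samples, and r -0.77 without the 2 samples farthest in that share. Both differed between the groups, so no p is given for the pooled value, and over deviations from the group means r was -0.58 and rho -0.51. Of the 3853 stretches of 50 bases in the Bnip3l transcripts, 20.8% are shared with the pseudogene Bnip3l-ps. The row of Bnip3l-ps held 902 counts over all samples against 291710 for Bnip3l.

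**Figure D3:**
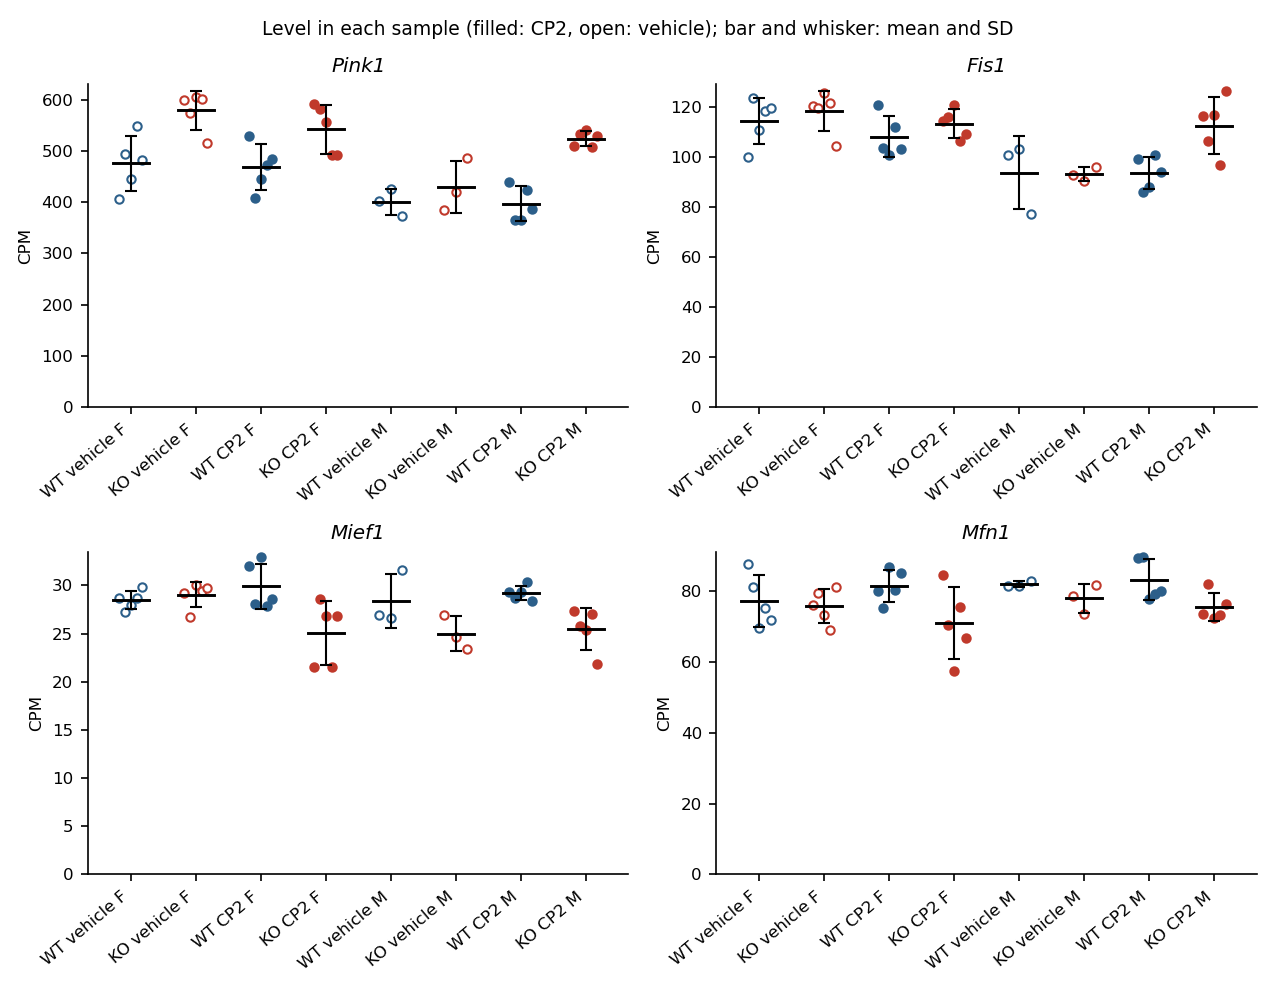
Level of Pink1, Fis1, Mief1 and Mfn1 in each sample, in CPM, with group mean and SD; filled points are CP2 and open points vehicle, KO in red and WT in blue. In KO CP2 M, Pink1 lies between 507.2 and 541.9 CPM, above all WT CP2 M samples, and Mief1 lies below all of them.

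Of the fission genes, Mief1, which encodes a Drp1 receptor, fell in KO brains under CP2. In CP2-treated F mice it was 21.51, 21.52, 26.78, 26.79 and 28.6 CPM in KO, and 27.87, 28.08, 28.61, 31.99 and 32.93 in WT, with the highest KO sample above the 2 lowest WT samples. In CP2-treated M mice it was 21.82, 25.41, 25.74, 27.01 and 27.31 CPM in KO and 28.42, 28.69, 29.28, 29.29 and 30.37 in WT. The M groups did not overlap, as in 6.33% of all genes in this direction. The differences were -0.26 (SE 0.078, adjusted p = 0.0781) in F and -0.20 (SE 0.078, adjusted p = 0.104) in M, and -0.23 (SE 0.055, adjusted p = 0.00499) averaged over both, a fall of 14.6%. The averaged call held when each sample was left out in turn and under all 6 alternative settings. Under vehicle the average was -0.08 (SE 0.064, adjusted p = 0.521).

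Fis1, an outer-membrane protein linked to division, rose in KO brains under CP2. In CP2-treated M mice it was 96.77, 106.7, 116.4, 116.8 and 126.7 CPM in KO and 86.14, 88.2, 94.1, 99.31 and 100.8 in WT, with the lowest KO sample below the 2 highest WT samples. The difference in M was 0.27 (SE 0.075, adjusted p = 0.0177). In CP2-treated F mice it was 106.5, 109.3, 114.7, 116.0 and 121.1 CPM in KO and 101.1, 103.2, 103.9, 112.0 and 121.1 in WT, and the groups overlapped (0.07, SE 0.075, adjusted p = 0.726). The average was 0.17 (SE 0.053, adjusted p = 0.0326), or 12.3%, and this call ended when any of 10 of the 20 samples was left out (KO CP2 F L216 and L227, KO CP2 M L266, L292 and L299, WT CP2 F L240, L257 and L311, WT CP2 M L262 and L263), with adjusted p from 0.0538 to 0.0777. The call in M ended without KO CP2 M sample L292 or L299 or WT CP2 M sample L262 or L263 (adjusted p from 0.0502 to 0.0789), with the outside-gene share as a covariate (0.21, adjusted p = 0.232) and with the hippocampus marker level as one (0.22, adjusted p = 0.0813). With the outside-gene share as a covariate the averaged difference was 0.15 (adjusted p = 0.073). In KO CP2 M that share was 7.33 ± 1.404% against 11.5 ± 1.64% in WT CP2 M, and the marker values given beside Pink1 in M belong to the same samples. Under vehicle Fis1 differed by 0.02 (95% interval -0.10 to 0.14).

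The remaining fission genes were not called in any comparison. Dnm1l, the dynamin that constricts the organelle, had group means from 210.2 to 225.9 CPM and differed by 0.00 (95% interval -0.09 to 0.10) under vehicle and -0.04 (-0.13 to 0.05) under CP2. Mff, one of its adaptors, had group means from 177.1 to 188.4 CPM and differed by 0.03 (-0.06 to 0.11) and 0.00 (-0.08 to 0.08). All 4 of these intervals include 0, and they are among the narrowest of the 10 genes.

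Of the fusion genes, Mfn1 fell in KO brains under CP2 while Mfn2 and Opa1 differed by less than their spread. In CP2-treated F mice Mfn1 was 57.31, 66.89, 70.56, 75.58 and 84.62 CPM in KO and 75.33, 79.97, 80.3, 85.16 and 86.7 in WT, and in M mice 72.33, 73.35, 73.61, 76.35 and 82.01 in KO and 77.91, 79.26, 79.91, 89.47 and 89.52 in WT. Both pairs of groups overlapped. The differences were -0.20 (SE 0.074, adjusted p = 0.154) in F, -0.14 (SE 0.074, adjusted p = 0.248) in M and -0.17 (SE 0.052, adjusted p = 0.0276) averaged, a fall of 11.1%. The averaged call ended without KO CP2 F sample L227 (adjusted p = 0.0716), WT CP2 F sample L257 (0.0534) or WT CP2 M sample L259 (0.0518) or L262 (0.0591), and with the outside-gene share as a covariate (-0.14, adjusted p = 0.081). Mfn2 had group means of 215.5 to 227.1 CPM and differed by -0.01 (95% interval -0.10 to 0.08) under vehicle and 0.02 (-0.06 to 0.10) under CP2. Opa1 had group means of 169.4 to 183.6 CPM and differed by 0.03 (-0.08 to 0.14) and 0.03 (-0.06 to 0.13).

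Oma1, the protease that cuts Opa1, was lower in KO vehicle F brains, at 3.03, 4.29, 4.89, 5.36 and 5.72 CPM, than in WT vehicle F brains, at 5.95, 6.06, 6.13, 6.33 and 6.77. The groups did not overlap, as in 2.87% of all genes in this direction, but the difference of -0.42 (SE 0.16, adjusted p = 0.111) did not pass. Averaged over F and M it was -0.31 (95% interval -0.57 to -0.05, adjusted p = 0.143) under vehicle and -0.18 (-0.41 to 0.05, adjusted p = 0.337) under CP2. By letter it was -0.20 (SE 0.20, adjusted p = 0.779) in vehicle M, -0.40 (SE 0.16, adjusted p = 0.188) in CP2 F and 0.04 (SE 0.16, adjusted p = 0.925) in CP2 M. Oma1 had the widest intervals and the lowest counts of the 10 genes.

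CP2 against vehicle was called for no member within either genotype. In KO mice averaged over F and M 0 of 10 were called (3.91% of all genes; 1 member, Bnip3l, and 18.1% of all genes at unadjusted p under 0.05; 0 by DESeq2). In KO F 0 were called (0.0859% of all genes), and 0 by DESeq2. At unadjusted p under 0.05 there was 1 member in KO F (Mief1), against 11% of all genes. In KO M 0 were called (5.10% of all genes), and 1 by DESeq2. At unadjusted p under 0.05 there were 3 members in KO M (Fis1, Pink1 and Bnip3l), against 19.4% of all genes. In WT mice no gene of the 25601 was called on average, in F or in M (0% each; 1031, 679 and 777 genes at unadjusted p under 0.05, none of them a member; DESeq2 called 0, 0 and 1 gene). In KO M mice, the samples given CP2 lay above the 3 given vehicle, without overlap, for Fis1, Pink1 and Bnip3l (3 of 10 members, and 6.63% of all genes). Pink1 was 507.2 to 541.9 against 385.4 to 485.9 CPM (0.29, SE 0.089, adjusted p = 0.0511). Fis1 was 96.77 to 126.7 against 90.62 to 96.1 (0.27, SE 0.087, adjusted p = 0.0573), and Bnip3l 141.2 to 160.4 against 121.7 to 135.5 (0.19, SE 0.070, adjusted p = 0.107). The outside-gene share was 5.18% to 9.07% in these KO CP2 M samples and 11.3% to 13.0% in KO vehicle M. Marker sums also differed between these samples, with medians of 6548 against 5490 CPM for astrocytes (2 of 8 called higher), 1.38e+04 against 8850 for oligodendrocytes (1 of 8) and 472.4 against 346.5 for microglia (3 of 8). The mean level of the hippocampus markers was 3.56 to 4.13 against 4.09 to 4.297 log2 CPM, and the part of the markers was not tested beyond the fit with that level, where the differences were 0.25 for Pink1 (adjusted p = 0.0879), 0.24 for Fis1 (0.0933) and 0.18 for Bnip3l (0.137). With the outside-gene share as a covariate they were 0.29 for Pink1 (adjusted p = 0.416), 0.21 for Fis1 (0.596) and 0.04 for Bnip3l (0.932). In KO F mice the CP2 difference was -0.10 for Pink1 and -0.06 for Fis1, and the F minus M difference was -0.38 (SE 0.12, adjusted p = 0.102) and -0.34 (SE 0.11, adjusted p = 0.139).

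The genotype by CP2 interaction, which asks whether CP2 acted differently in KO and WT, was called for 0 of 10 members (0.715% of all genes). DESeq2 also called 0. The interaction had an unadjusted p under 0.05 for 1 member (Bnip3l), against 14.6% of all genes. Its largest sizes were 0.16 for Bnip3l (95% interval 0.03 to 0.29, adjusted p = 0.224), 0.15 for Fis1 (-0.02 to 0.31, adjusted p = 0.409) and -0.15 for Mief1 (-0.32 to 0.02, adjusted p = 0.428), and it was 0.11 for Pink1 (-0.05 to 0.28, adjusted p = 0.552). The members called under CP2 and not under vehicle were therefore not shown to differ between treatments. The F minus M difference of KO against WT under vehicle was called for 0 members (0.102% of all genes), and for 0 by DESeq2. Its unadjusted p was under 0.05 for 0 members, against 8.37% of all genes. The F minus M difference of CP2 against vehicle in KO was called for 0 (0.691%), and for 0 by DESeq2. Its unadjusted p was under 0.05 for 2 members (Fis1 and Pink1), against 14.7% of all genes. The vehicle comparison, the CP2 comparison in KO and the interaction share the KO vehicle samples, so their values for a member are not independent.

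Beyond the members, 63 other genes of fusion, fission, the Pink1 pathway, mitophagy receptors and autophagy were tested, all of which passed the filter. Under vehicle, averaged over F and M, 3 rose and 5 fell in KO, where 2.87% of all genes rose and 3.80% fell (median log2 difference -0.03, against 0.02 over all genes). By group, with the higher count first, these were 1 and 2 of 14 genes of fusion and cristae, 1 and 0 of 12 of fission, 0 and 0 of 12 of the Pink1 pathway, 0 and 0 of 7 receptors and 1 and 3 of 19 autophagy genes, Phb2 standing in 2 groups. Spg7, a subunit of an inner-membrane protease, rose by 0.24 (SE 0.053, adjusted p = 0.00384), Optn, an autophagy adaptor, by 0.23 (SE 0.072, adjusted p = 0.0407), and Gdap1l1, a relative of the fission factor Gdap1, by 0.21 (SE 0.054, adjusted p = 0.0153). Phb, a prohibitin of the inner membrane, fell by 0.29 (SE 0.068, adjusted p = 0.00768), Chchd3, a component of the cristae junction complex, by 0.24 (SE 0.063, adjusted p = 0.0146), and Atg12, part of the LC3 conjugation machinery, by 0.24 (SE 0.057, adjusted p = 0.00764). With the outside-gene share as a covariate 1 of these genes (Gdap1l1) was called higher and 0 lower under vehicle, and the other 5 genes named here lost the call. Under that covariate the differences were 0.22 for Optn and 0.19 for Spg7, and smaller by over 1.5 times for Phb (-0.16), Chchd3 (-0.13) and Atg12 (-0.11). Optn was called in 8 of the 16 fits that leave out 1 sample, Phb was not called without L322, Chchd3 was not called without L285 or L322, and Gdap1l1 was not called without L303 or L322.

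Under CP2, 8 of the 63 rose and 3 fell in KO, where 5.54% of all genes rose and 6.07% fell (median 0.03, against 0.01 over all genes). These were 3 and 0 of the fusion and cristae genes, 2 and 1 of fission, 1 and 2 of the Pink1 pathway, 1 and 0 of the receptors and 1 and 0 of autophagy. Optn rose from 17.9 ± 1.45 to 23.7 ± 1.38 CPM in F and from 17.6 ± 1.51 to 24.0 ± 2.19 in M (0.43, SE 0.062, adjusted p = 1.38e-05). Fbxl4, an F-box protein that restrains mitophagy, rose by 0.27 (SE 0.065, adjusted p = 0.00346) and Parl, the inner-membrane protease that cuts Pink1, by 0.25 (SE 0.053, adjusted p = 0.00119). Usp15, a deubiquitinase, fell by 0.25 (SE 0.046, adjusted p = 0.000323), Rhot2, an outer-membrane GTPase of mitochondrial transport, by 0.22 (SE 0.048, adjusted p = 0.00183), and Spire1, an actin nucleator, by 0.13 (SE 0.045, adjusted p = 0.0495). Optn, Fbxl4, Parl, Usp15 and Rhot2 were called in all 20 fits that leave out 1 sample and with the outside-gene share as a covariate, where 7 genes rose and 6 fell, whereas Spire1 was called in 6 of the 20. CP2 against vehicle in KO, averaged, had 4 higher and 0 lower, against 2.08% and 1.84% of all genes (Chchd3 0.24, Map1lc3b 0.22, Gabarap 0.19 and Gabarapl2 0.17), with 0 called under that covariate. Of the 18 fits that leave out 1 sample, Gabarap was called in 9, Gabarapl2 in 6, Chchd3 in 17 and Map1lc3b in 18. In WT and in the interaction 0 of 63 were called. Of the receptors and adaptors described whatever their result, Bnip3 differed by -0.03 (adjusted p = 0.844) under vehicle and 0.09 (0.411) under CP2, Fundc1 by -0.15 (0.234) and 0.08 (0.512), and Sqstm1 by 0.02 (0.872) and 0.11 (0.0979).

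**Figure D4:**
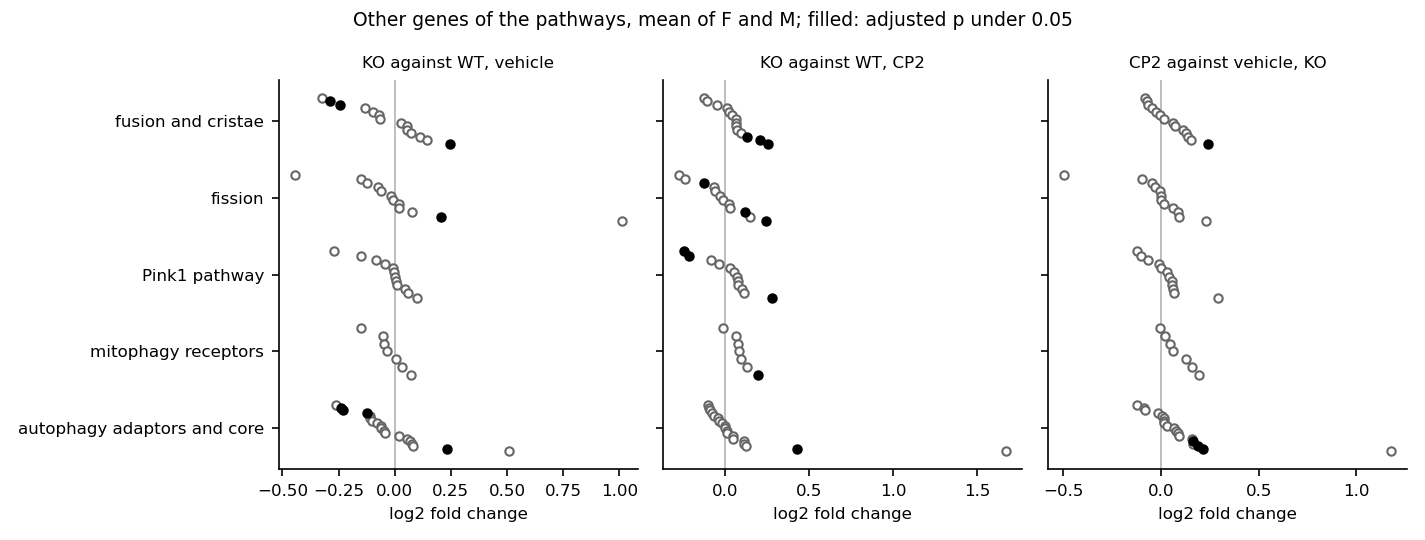
Log2 fold change of the 63 other genes, by group of genes, in the main comparisons averaged over F and M; filled points passed adjusted p under 0.05. Optn is the farthest filled point to the right under CP2 (0.43), and Spg7 under vehicle (0.24).

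Pink1 and Fis1, singled out after their values were seen, moved together over the 36 samples, with Pearson r 0.83 and Spearman rho 0.82 (no p is given, since this was the highest r of the 45 member pairs). Without the 2 samples farthest from the median of Fis1, r was 0.80, and within the letters it was 0.75 in the 20 F samples and 0.80 in the 16 M samples. Over deviations from the group means r was 0.68. The next highest pairwise r was 0.62 (Opa1 and Dnm1l), and 29 of the 45 pairs were positive. The genes whose log2 CPM followed a member most closely over the 36 samples, out of 15420 whose mean CPM reached 1, were Nop53 (r 0.91), Tprgl (0.89) and Rpl3 (0.88) for Pink1, and Drap1 (0.93), Ndufb9 (0.93) and Cox4i1 (0.92) for Fis1. For Mief1 they were Ing1 (0.77), Spry4 and Phf8 (0.75 each), for Mfn1 Srsf10 (0.77), Zscan26 (0.75) and Spag1 (0.74), and for Bnip3l Tmem9b (0.85), Map1lc3b and Ywhaq (0.81 each). These correlations are across libraries that differ in depth and in the outside-gene share, which itself had r -0.55 with Fis1 and -0.34 with Pink1. Over deviations from the group means, r with that share was -0.19 for Fis1 and 0.02 for Pink1.

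**Figure D5:**
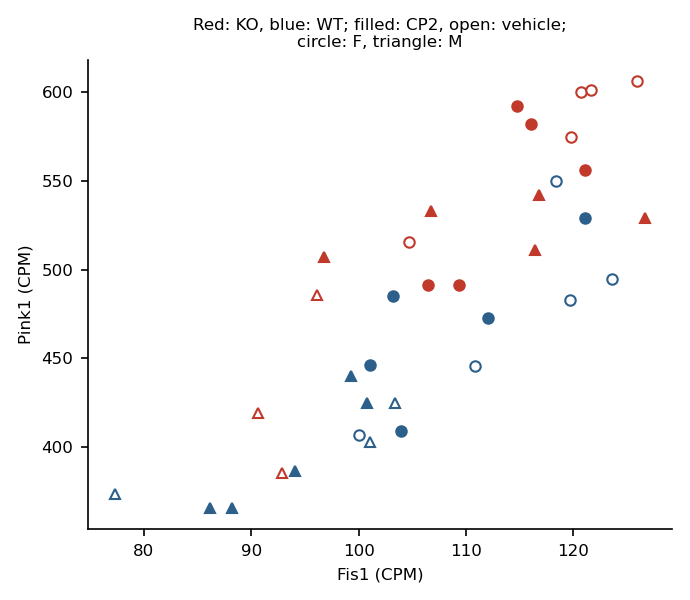
Pink1 against Fis1 in CPM, 1 point per sample; KO in red and WT in blue, CP2 filled and vehicle open, F circles and M triangles. The points lie along a rising line (r 0.83), and the KO CP2 M samples lie to the right of the KO vehicle M samples.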

How the data were processed

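Raw counts per gene were deposited by the authors as 1 table, made with STAR and HTSeq on GRCm39, per the submitters' processing notes; versions, annotation release and strand setting are not given in the sources used here. Of 56985 rows, 5 summary rows (12.0% to 19.6% of a library) were left out. Gene symbols came from GENCODE M21, which matched 52073 IDs (91.4%). Groups came from the genotype and treatment labels and the title letter. All 36 samples were fitted with edgeR 4.0.16 (R 4.3.3; TMM, filterByExpr, robust quasi-likelihood F test), with 8 group means, 15 contrasts and Benjamini-Hochberg adjustment over 25601 genes; a gene was called at adjusted p under 0.05. Alternatives were RLE size factors, no filter, DESeq2 1.42.0, the contrast's groups alone, 2 covariates and leaving out each sample. Exon lengths came from GENCODE M21. The scripts were tested on simulated counts. The labels do not say that samples came from separate litters, so p-values measure the spread between these mice.

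The members, the pathway list and the marker lists were chosen with earlier results of these data known. All members were described whatever their result, with the 3 highest and 3 lowest called pathway genes, and Bnip3, Fundc1 and Sqstm1 always. The result for 1 gene of the pathway list is not reported here. The titles' letters were taken as labels. Counting without a stated strand setting cannot separate Dnm1l and Mff from antisense genes that overlap 4.67% and 2.00% of their exon bases.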

Additional observations from a re-analysis of the deposited data

Results flagged for a closer look

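Of 60 combinations of a member and a group of 5 samples, 5 held a sample set apart from the rest of its group by Dixon's criterion, which flags about 5% by chance. In KO vehicle F, Fis1 was lowest in sample L283 at 104.7 CPM, with the others at 119.8 to 125.9. In the same group sample L279 was lowest for Mff, at 171 CPM with the others at 184.1 to 187.3, and for Mief1, at 26.8 CPM with the others at 29.2 to 30.1. In WT CP2 M, sample L267 was highest for Oma1, at 6.07 CPM with the others at 4.84 to 5.13, and for Bnip3l, at 148 CPM with the others at 135.6 to 139.0.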

How the results depend on the processing

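The number of the 10 members called was 0 for KO against WT under vehicle averaged over F and M, and 1 with RLE size factors and with DESeq2 (Pink1). In vehicle F it was 1, and 0 with the outside-gene share as a covariate, with the hippocampus marker level as a covariate and on the comparison's groups alone. Under CP2 it was 4 on average and 2 (Pink1 and Mief1) with the outside-gene share, and in M it was 2, and 1 with either covariate. For CP2 against vehicle in KO M it was 0, and 1 without the filter, on the comparison's groups alone and with DESeq2. Leaving out 1 sample gave 0 to 2 members for vehicle averaged, 0 to 2 for vehicle F, 2 to 4 for CP2 averaged, 0 to 1 for CP2 F, 1 to 2 for CP2 M, 0 to 1 for CP2 in KO averaged, 0 to 2 for CP2 in KO M, and 0 to 0 for the other comparisons. The cause of these changes was not tested. Over all genes, the outside-gene share as a covariate moved the calls from 1002 to 0 for CP2 in KO, and from 2558 to 862 under CP2 in M. Of 150 pairs of a member and a comparison, 140 were called under no full-sample setting, and 48 of these changed sign in some alternative, at sizes up to 0.13. No called value changed sign. No paired analysis was possible because the sample numbers in the titles are not shared between groups.

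Oma1 had the fewest reads of the members, at 152 to 537 counts a sample. Both vehicle M groups had 3 samples, and leaving 1 out assumes that the rest vary like the other groups.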
